A study of Mus musculus with 11 samples.

Results

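The 10 genes described here are Nfatc1 and 9 genes that mark or act in the endothelium covering a heart valve: Cdh5, Pecam1, Kdr, Tek, Emcn, Vwf, Klf2, Klf4 and Nos3. They were chosen by name and matched on the gene symbol. All 10 were found in both deposited tables, among the 24062 genes listed for the Ift88 experiment and the 26667 listed for the Dzip1 experiment. All 10 also passed the filter on low counts in both experiments.

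RNA was sequenced from mouse mitral leaflets, the tissue flaps of the inlet valve of the left ventricle, in 11 libraries. The Ift88 experiment held 3 knockout libraries (NfatC1Cre(+), Ift88f/f) and 2 wild-type libraries (NfatC1Cre(+); Ift88+/+). Both groups therefore carried the same Cre, driven by Nfatc1, which deletes floxed Ift88 in cells that express the driver or descend from such cells. The Dzip1 experiment held 3 libraries with 1 S14R allele (Dzip1S14R/+, here S14R/+) and 3 Dzip1+/+ libraries, with no Cre in their labels. Ift88 encodes a protein of the transport system that builds cilia, and Dzip1 a zinc finger protein found at the base of the cilium. The sources used here give neither the ages of the mice nor whether a library came from 1 animal or several. Each p-value therefore sets a difference against the spread between libraries, which may be technical.

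Nfatc1 is a transcription factor that the phosphatase calcineurin switches on by letting it enter the nucleus. In the mouse embryo it is expressed in the endocardium, the inner lining of the heart, and is needed for the valves to form. The other genes belong to the general programme of endothelial cells, which are held together by cadherin junctions, respond to VEGF and angiopoietin, and answer blood flow through the factors KLF2 and KLF4, which raise the enzyme that makes nitric oxide.

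The libraries of the Ift88 experiment varied far more among themselves than those of the Dzip1 experiment. The biological coefficient of variation, the spread between libraries that counting noise does not account for, was 87.7% and 7.85% in the 2 experiments in that order. Total counts were 23.4 to 40.3 M per library in the Ift88 knockout and 31.4 and 53.8 M in its wild type, and 86.0 to 93.5 M in S14R/+ and 75.1 to 79.1 M in Dzip1 wild type. The 2 Ift88 wild-type libraries stood apart from each other. The summed level of 20 cardiomyocyte markers was 46749, 36703 and 48495 counts per M (CPM) in the knockout libraries, against 71220 CPM in wild-type replicate 1 and 212 CPM in wild-type replicate 2, where Mb was at 0. The targeted gene Ift88 was at 3.03, 4.12 and 0.428 CPM in the knockout libraries, below the 6.31 and 21.2 CPM of the wild type. Dzip1 was at 29.5, 28.0 and 28.2 CPM in S14R/+ and at 30.4, 27.6 and 32.3 CPM in Dzip1 wild type, and the counts do not tell the S14R allele from the other. Every member was detected in every library, and of 35 other endothelial identity genes no more than 3 were at 0 in any library, those 3 being Erg, Mmrn1 and Lyl1 in Ift88 wild-type replicate 1.

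In the Ift88 experiment 9 of the 10 members had a positive fold change, knockout over wild type, against 49.4% of all tested genes. Without wild-type replicate 1 the count was 6 of the 10. None of the members passed the test. The median log2 fold change of the members was 0.87, against -0.01 over all 14244 genes tested. Of the 10 members 0 passed an adjusted p of 0.05 with edgeR's quasi-likelihood test, as did 0% of all tested genes. At an unadjusted p under 0.05 edgeR gave 2 of the 10, Vwf and Emcn, against 6.01% of all tested genes. DESeq2 called 0 of the 10 at an adjusted p of 0.05, against 2.33% of the genes to which it gave an adjusted p, and limma-voom called 0. For 3 of the 10, Cdh5, Emcn and Vwf, all knockout libraries had higher CPM than both wild-type libraries, while 15.4% of all tested genes did so. These values come from bulk tissue, in which a difference in the number of endothelial cells and one in RNA per endothelial cell cannot be told apart.

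Nfatc1 (chr18:80606205-80713071 in the mouse build GRCm38) was at 130, 598 and 221 CPM in the 3 knockout libraries, against 47.1 and 434 CPM in the 2 wild-type libraries. The highest value was in knockout replicate 2 and the lowest in wild-type replicate 1, and the groups overlapped. The log2 fold change was 0.39 ± 0.955 (SE), with a 95% interval of 0.263 to 6.54 on the fold scale and an adjusted p of 0.979 by edgeR. Since both groups carried the Nfatc1-driven Cre, the comparison does not set an animal with the driver against one without it.

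The junction genes differed in how far the wild-type libraries lay apart. Cdh5 (chr8:104101625-104144511), which encodes VE-cadherin of the adherens junction, was at 60.5, 67.4 and 50.5 CPM in the knockout libraries and at 7.80 and 45.8 CPM in the wild-type libraries. All knockout values lay above both wild-type values, although the gap to wild-type replicate 2 was small. Its log2 fold change was 1.14 ± 0.672 (SE), with an adjusted p of 0.847 by edgeR. Pecam1 (chr11:106654217-106750628), which encodes the adhesion molecule PECAM-1 (CD31), was at 325, 473 and 351 CPM in the knockout libraries and at 42.1 and 598 CPM in the wild-type libraries. Here the wild type held both the lowest and the highest library, so that the log2 fold change was 0.28 ± 0.891 (SE) and the adjusted p 0.983 by edgeR.

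For both receptor genes wild-type replicate 1 lay far below every other library. Kdr (chr5:75932827-75978458), the main signalling receptor for VEGF, was at 98.0, 171 and 114 CPM in the knockout libraries, against 31.4 and 105 CPM in the wild-type libraries. Its groups overlapped, with a log2 fold change of 0.86 ± 0.519 (SE) and an adjusted p of 0.851 by edgeR. Tek (chr4:94739289-94874976), which encodes the angiopoietin receptor Tie2, was at 392, 720 and 516 CPM in the knockout libraries, against 22.8 and 705 CPM in the wild-type libraries. Tek had the widest range of the 10 members, 31.6 times between the highest and the lowest library, and that range was nearly as wide within the wild type as over all 5 libraries. The log2 fold change of Tek was 0.61 ± 1.11 (SE), with an adjusted p of 0.964 by edgeR.

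The surface and secreted products gave the smallest p of the 10. Emcn (chr3:137341067-137432185) encodes endomucin, a sialoglycoprotein of the endothelial surface, and was at 183, 218 and 124 CPM in the knockout libraries, against 46.5 and 89.8 CPM in the wild-type libraries. The groups did not overlap, and the log2 fold change was 1.28 ± 0.412 (SE), with an unadjusted p of 0.0201 and an adjusted p of 0.802 by edgeR. Vwf (chr6:125546774-125686679) encodes von Willebrand factor, the clotting protein that endothelial cells store and release, and was at 137, 184 and 198 CPM in the knockout libraries, against 8.25 and 56.6 CPM in the wild-type libraries. Its groups did not overlap either, and the log2 fold change was 2.41 ± 0.745 (SE), or 5.32-fold with a 95% interval of 1.52 to 18.6. The unadjusted p of Vwf was 0.0170 and its adjusted p 0.802 by edgeR. DESeq2 gave Vwf an adjusted p of 0.0739 and Emcn one of 0.202, both short of the threshold. In the authors' deposited table the adjusted p was 0.113 for Vwf and 0.253 for Emcn, the lowest of the 10 members there.

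Platelets carry von Willebrand factor as well as endothelium, and the part of platelets in the Vwf values was not tested. The platelet and megakaryocyte list's 10 genes summed to 106, 41.5 and 64.7 CPM in the knockout libraries, against 28.5 and 388 CPM in the wild-type libraries. Of the 10 genes 1 had a positive fold change. Gp6, the platelet collagen receptor gene, was at 0 in all 3 knockout libraries and at 0.669 and 5.71 CPM in the wild-type libraries.

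The 2 flow-linked factors did not follow each other across the 5 libraries. Klf2 (chr8:72319033-72321656) was at 20.2, 131 and 123 CPM in the knockout libraries, against 21.5 and 73.9 CPM in the wild-type libraries. It is the one member whose lowest library was a knockout. Klf4 (chr4:55527143-55532466) was at 42.3, 71.6 and 14.5 CPM in the knockout libraries, against 5.99 and 17.8 CPM in the wild-type libraries. Knockout replicate 3 was thus high for Klf2 and the lowest knockout library for Klf4. The log2 fold changes were 0.88 ± 0.850 (SE) for Klf2 and 1.79 ± 0.798 (SE) for Klf4, with adjusted p of 0.916 and 0.802 by edgeR, and both pairs of groups overlapped.

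Nos3 was the only member with a negative fold change over all 5 libraries by edgeR, and it was positive, at 0.56 on the log2 scale, by limma-voom. Nos3 (chr5:24364810-24384474), the endothelial nitric oxide synthase, was at 223, 333 and 237 CPM in the knockout libraries, against 39.5 and 587 CPM in the wild-type libraries. All knockout libraries lay between the 2 wild-type libraries. The log2 fold change was -0.22 ± 0.893 (SE), with an adjusted p of 0.987 by edgeR.

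**Figure D1:**
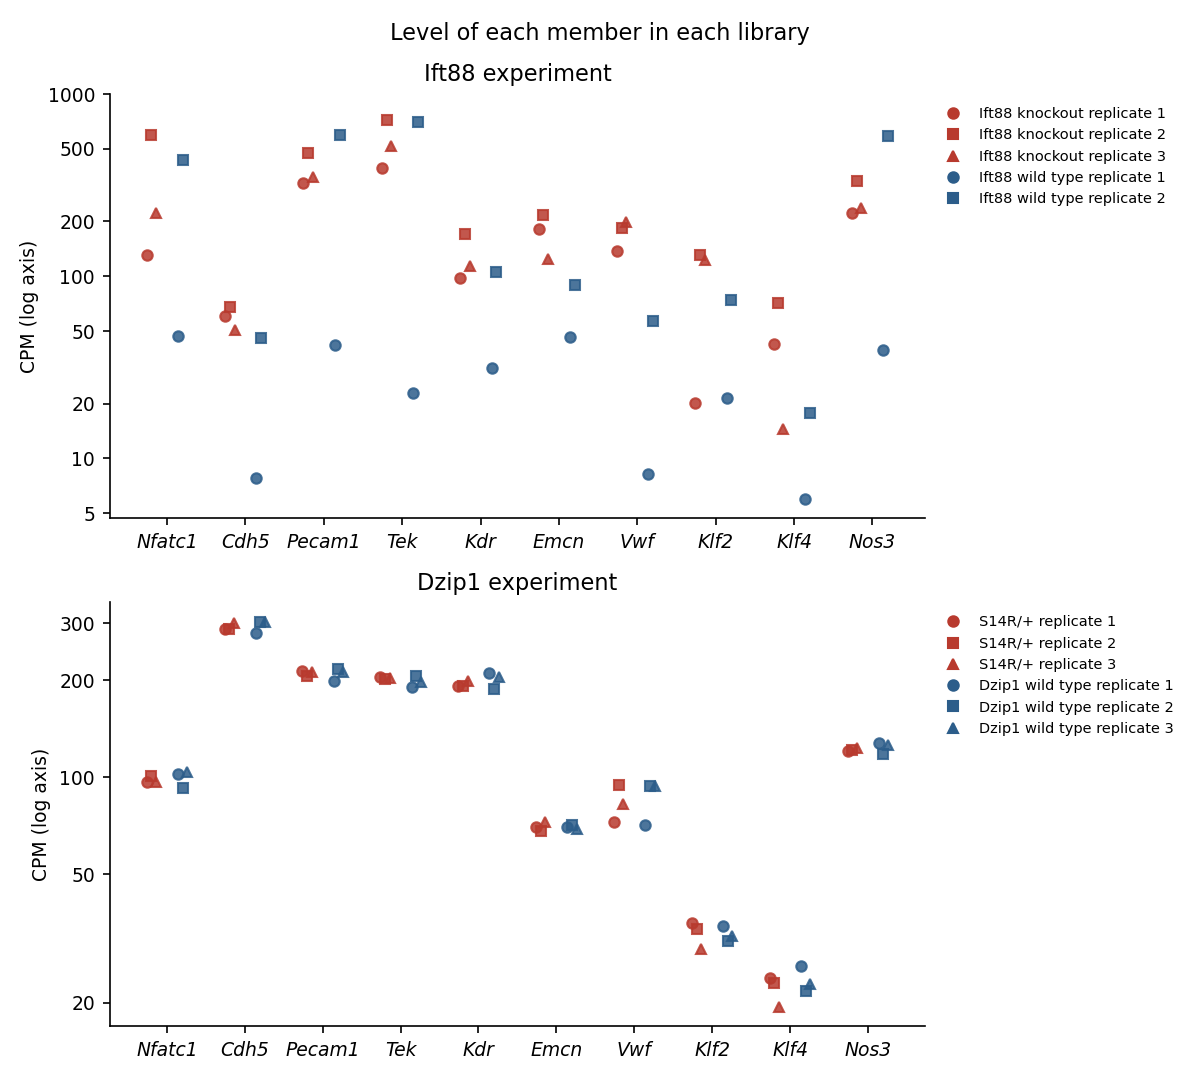
Level of each member in CPM (vertical log axis) in each library of the Ift88 experiment (top) and the Dzip1 experiment (bottom), with mutant libraries in red left of wild-type libraries in blue and a marker shape per replicate. In the Ift88 experiment wild-type replicate 1 (blue circle) is the lowest library for 9 of the 10 members, and in the Dzip1 experiment the groups of all 10 members overlap.

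The direction of several members rested on which wild-type library stood for the genotype. Wild-type replicate 1 was the lowest of the 5 libraries for 9 of the 10 members. The 10 members summed to 1610, 2967 and 1950 CPM in the knockout libraries, against 273 CPM in wild-type replicate 1 and 2713 CPM in wild-type replicate 2. Without wild-type replicate 2, all 10 log2 fold changes were positive, with a median of 2.48 and the largest for Tek, at 4.26. Without wild-type replicate 1, 6 of the 10 were positive, with a median of 0.29, and Nfatc1 (-0.46), Pecam1 (-0.63), Tek (-0.37) and Nos3 (-1.14) had negative fold changes. Without knockout replicate 2, the fold change of Nfatc1 was -0.44 on the log2 scale. Vwf, Emcn, Cdh5, Kdr, Klf2 and Klf4 had a positive fold change whichever single library was left out, with Vwf between 1.63 and 4.08 and Emcn between 0.98 and 1.60. None of the 10 passed an adjusted p of 0.05 in any of these fits, the smallest being 0.141 by edgeR, in which the lone wild-type library is assumed to vary like the others.

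**Figure D2:**
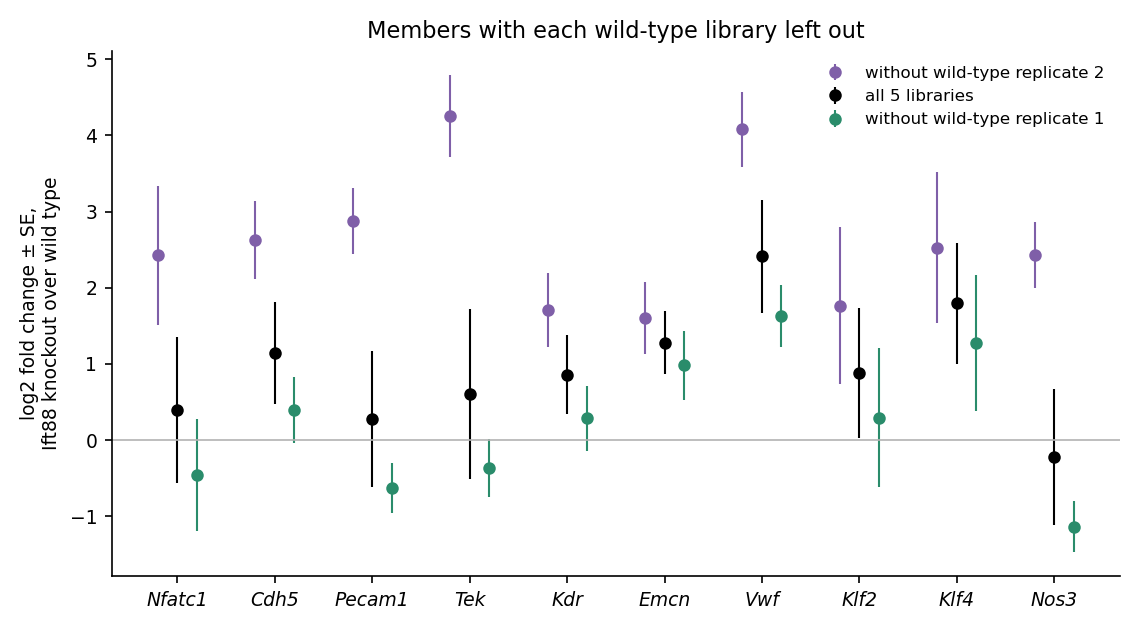
Log2 fold change of each member, Ift88 knockout over wild type, with its SE as a bar (vertical axis), from all 5 libraries (black), without wild-type replicate 2 (purple, left of it) and without wild-type replicate 1 (green, right of it). Tek spans 4.26 to -0.37 between the 2 left-out fits, whereas Vwf and Emcn stay above 0 in all 3.

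Wild-type replicate 1 was also the library with the most cardiomyocyte RNA and the least interstitial RNA. The 16 interstitial and fibroblast markers summed to 12407, 13101 and 9063 CPM in the knockout libraries, against 2609 CPM in wild-type replicate 1 and 8679 CPM in wild-type replicate 2. The cardiomyocyte sums given above show the opposite order of the 2 wild-type libraries, and the part of this tissue makeup in the members' values was not tested. With cardiomyocyte marker level as a covariate the members' median log2 fold change was 2.35, and with the 3 libraries whose names hold IR28N alone (knockout replicates 1 and 2 and wild-type replicate 1), it was 2.68. All 10 members were positive in both fits, Nos3 included, and none passed an adjusted p of 0.05 by edgeR in the covariate fit. Wild-type replicate 1 was the only wild-type library of the IR28N fit. The covariate fit came near the fit without wild-type replicate 2, the library with cardiomyocyte markers at 212 CPM, whose median was 2.48. Neither fit can therefore separate tissue makeup from the difference between the 2 wild-type libraries.

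**Figure D3:**
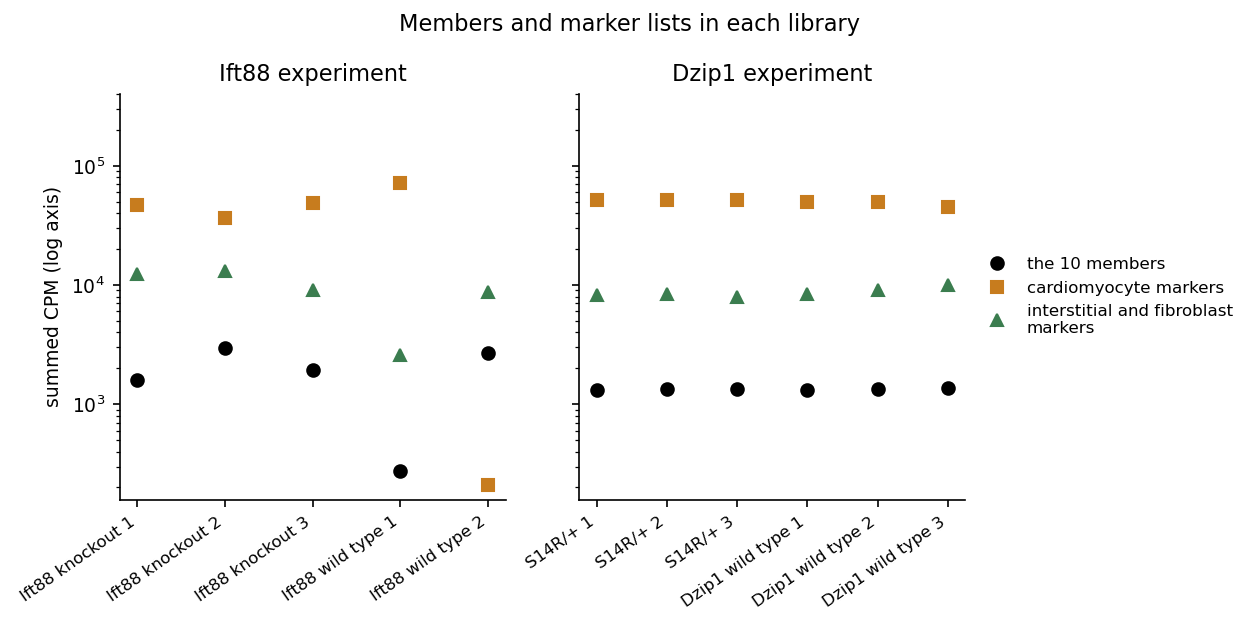
Summed CPM (vertical log axis) of the 10 members, the 20 cardiomyocyte markers and the 16 interstitial and fibroblast markers in each library, mutant libraries left of wild-type libraries. In Ift88 wild-type replicate 1 the members sum to 273 CPM, and in wild-type replicate 2 the cardiomyocyte markers sum to 212 CPM, while the Dzip1 libraries lie level.

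Fold changes in the Ift88 experiment were related to transcript length. The median log2 fold change over all tested genes was -0.43 among the 2827 genes with the shortest transcripts and 0.59 among the 2825 with the longest, above 7.51 kb, where Kdr and Vwf lie. Vwf, at 16.1 kb of exon sequence, had a log2 fold change of 1.43 ± 0.717 (SE) once the trend with length was removed in each library, against 2.41 without the correction, and its unadjusted p by edgeR was 0.0914, against 0.0170. Kdr was at 0.31 ± 0.454 (SE) after the correction, against 0.86 without it. Nfatc1 was at -0.01 ± 0.885 (SE) after the correction, and Emcn at 1.11 ± 0.384 (SE). Klf2, among the shortest, was at 1.22 ± 0.895 (SE) after it.

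Setting each member against Pecam1 within the same library cancels a shift that both genes share in a library, and this comparison was chosen after the levels had been seen. Nos3 had 0.686, 0.703 and 0.675 counts per Pecam1 count in the knockout libraries, against 0.938 and 0.983 in the wild-type libraries. These ratios lay close together within each genotype, although the 2 wild-type libraries differed 14.2 times in the CPM of Pecam1 and 14.9 times in that of Nos3. Vwf had 0.420, 0.390 and 0.565 counts per Pecam1 count in the knockout libraries, against 0.196 and 0.0947 in the wild-type libraries. Tek had 1.20, 1.52 and 1.47 counts per Pecam1 count in the knockout libraries, against 0.542 and 1.18 in the wild-type libraries, so that its groups were apart by a small gap only.

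Of the 9 ratios these 3 did not overlap between the groups, Nos3 lower and Vwf and Tek higher in the knockout, while 10.2% of all tested genes had a ratio to Pecam1 that did not overlap. The log2 difference, knockout minus wild type, was -0.48 for Nos3, 1.73 for Vwf and 0.80 for Tek, each with an exact two-sided permutation p of 0.2, the smallest that 3 against 2 libraries can give. The design cannot reach 0.05 here. Leaving out each library in turn gave -0.51 to -0.45 for Nos3, 1.21 to 2.26 for Vwf and 0.24 to 1.36 for Tek. These ratios were not corrected for transcript length. Exon sequence is 6.23 kb for Pecam1, 4.13 kb for Nos3, 16.1 kb for Vwf and 4.71 kb for Tek. The part of length in the ratios was not tested. With Cdh5 in place of Pecam1, Vwf was again apart, at a log2 difference of 1.34, and Tek overlapped at 0.41. Nos3 was apart by a small gap only, with 3.68, 4.94 and 4.70 counts per Cdh5 count in the knockout libraries, against 5.06 and 12.8 in the wild-type libraries, a log2 difference of -0.87. The remaining 6 ratios overlapped, among them Nfatc1 with 0.401, 1.26 and 0.631 counts per Pecam1 count in the knockout libraries and 1.12 and 0.727 in the wild-type libraries. Emcn, apart by its CPM, overlapped as a ratio, with 0.354 to 0.562 in the knockout libraries and 0.150 and 1.10 in the wild-type libraries.

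**Figure D4:**
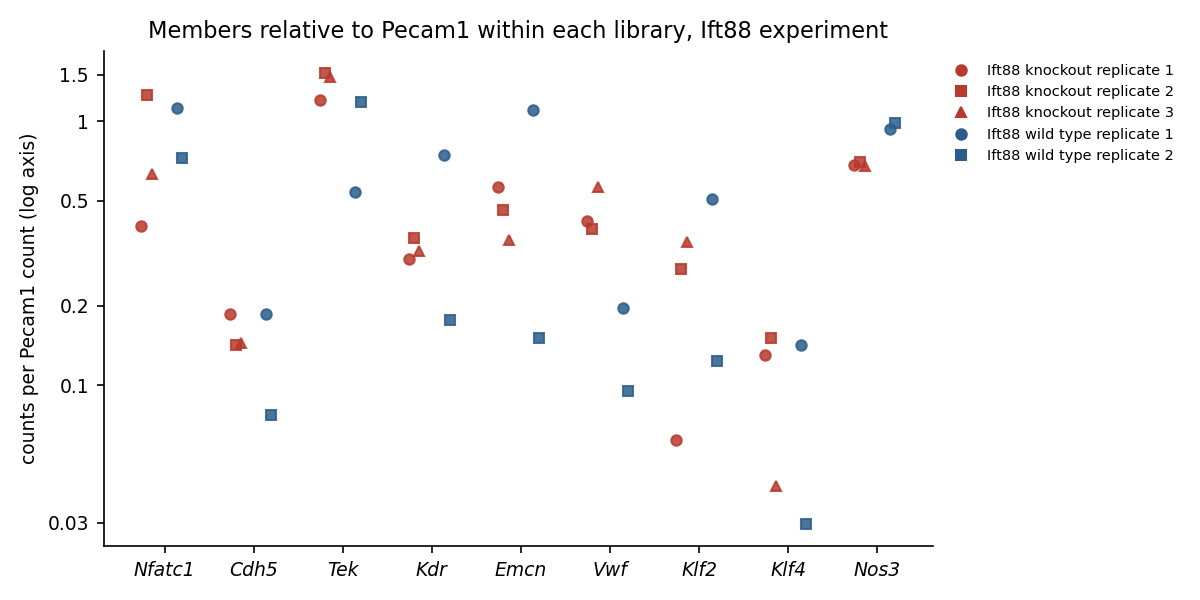
Counts of each member per Pecam1 count within the same library (vertical log axis) in the Ift88 experiment, knockout libraries in red left of wild-type libraries in blue and a marker shape per replicate. Nos3 ratios are 0.675 to 0.703 in the knockout and 0.938 and 0.983 in the wild type, whereas those of Klf2 and Emcn spread within a genotype.

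The 250 bases before the start of transcription were read from RefSeq (GRCm38.p6) for 5 members, Tek, Kdr, Emcn, Klf2 and Klf4. The windows of the other members, Nfatc1 among them, are not reported here, so their motifs are not given. Shown are Tek, Kdr and Emcn, which were all lowest in Ift88 wild-type replicate 1, and Klf2, which was not. Each is given 5′ to 3′ on the strand of its gene, and capitals mark any match, on either strand, to GGAAA (the core bound by NFAT factors), CACCC (KLF factors), CGGAAG (ETS factors) or GTAAACA (forkhead factors), of which the last 2 had none.
Tek (chr4:94739039-94739288, plus strand): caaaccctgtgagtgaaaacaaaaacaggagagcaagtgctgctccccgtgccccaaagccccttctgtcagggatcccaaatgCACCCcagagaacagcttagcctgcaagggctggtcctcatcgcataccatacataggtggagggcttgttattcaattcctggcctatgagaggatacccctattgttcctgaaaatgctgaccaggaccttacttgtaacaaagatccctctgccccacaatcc
Kdr (chr5:75978456-75978705, minus strand): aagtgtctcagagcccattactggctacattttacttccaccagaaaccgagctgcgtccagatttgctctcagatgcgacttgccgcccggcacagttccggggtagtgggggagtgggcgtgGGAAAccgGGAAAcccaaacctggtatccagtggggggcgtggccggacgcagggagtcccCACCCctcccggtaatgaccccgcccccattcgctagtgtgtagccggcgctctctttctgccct
Emcn (chr3:137340828-137341077, plus strand): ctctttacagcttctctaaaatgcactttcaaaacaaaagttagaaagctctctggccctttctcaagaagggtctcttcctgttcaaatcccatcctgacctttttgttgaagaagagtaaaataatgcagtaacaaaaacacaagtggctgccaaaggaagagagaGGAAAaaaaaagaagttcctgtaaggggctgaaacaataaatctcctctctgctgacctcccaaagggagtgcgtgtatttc
Klf2 (chr8:72318812-72319061, plus strand): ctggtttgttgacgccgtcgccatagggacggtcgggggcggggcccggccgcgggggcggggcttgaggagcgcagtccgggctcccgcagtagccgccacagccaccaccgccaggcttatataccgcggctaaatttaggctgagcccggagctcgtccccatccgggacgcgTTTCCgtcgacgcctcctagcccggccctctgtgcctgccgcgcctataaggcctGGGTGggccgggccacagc
Kdr held 2 GGAAA matches, 126 and 118 bases before the start, and Emcn and Klf2 held 1 each. Tek, Kdr and Klf2 held 1 CACCC match each, and Klf4 held no match to any of the 4 motifs. Over the 32851 windows of this length that were counted, 55.6% held GGAAA, 52.0% CACCC, 13.6% CGGAAG and 3.17% GTAAACA.

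Other genes of the members' pathways, in 6 lists of 14 to 35 tested genes, gave 0 calls by edgeR in the Ift88 experiment and 2 by DESeq2, with between 0 and 3 genes a list at an unadjusted p under 0.05 by edgeR. In the NFAT and calcineurin list 11 of 21 genes were positive, with a median log2 fold change of 0.30. Its smallest p were those of Gsk3b, a kinase that sends NFAT out of the nucleus, at 1.56 ± 0.460 (SE), and Nfat5, the NFAT relative that answers salt stress, at 2.42 ± 0.749 (SE). The VEGF and angiopoietin list had 11 of 14 genes positive, with a median of 0.39. It was led by Nrp1, a VEGF co-receptor, at 0.87 ± 0.332 (SE), and Ptprb, the phosphatase that acts on Tie2, at 2.23 ± 0.873 (SE). In the list of other endothelial identity genes 18 of 35 were positive, with a median of 0.00291, led by Ptprb and by Mmrn2 at 1.38 ± 0.544 (SE). The general endothelial list thus had a median near that of all tested genes, -0.01, where the 10 members had 0.87. The members' median was 0.29 without wild-type replicate 1. A median of this size was not particular to the members, since the smooth muscle and pericyte list had 0.80. The general endothelial list also differed between the wild-type libraries, with sums of 1735 CPM in replicate 1 and 9159 CPM in replicate 2.

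The valve endothelial and endocardial list was led by Npr3 and Notch1. Npr3, the clearance receptor for natriuretic peptides and an endocardial marker, averaged 80.1 ± 15.3 CPM in the knockout and 10.8 ± 0.127 CPM in the wild type (SD, n = 3 and 2), a log2 fold change of 2.75 ± 0.407 (SE). DESeq2 called it, with an adjusted p of 2.04e-07, and edgeR did not. Unlike the 10 members, Npr3 was at nearly the same level in both wild-type libraries, 10.7 and 10.9 CPM. Notch1, the receptor gene mutated in human valve disease, followed at 1.91 ± 0.546 (SE), and 14 of the 21 genes were positive with a median of 0.29. Nfat5, with an adjusted p of 0.0255, was the only other listed pathway gene that DESeq2 called. Among the genes upstream of KLF2 and KLF4 and linked to flow, 17 of 22 were positive with a median of 0.54, led by Heg1 at 1.82 ± 0.780 (SE) and Edn1, the endothelin gene, at 1.59 ± 0.807 (SE). Around Nos3, 10 of 18 were positive with a median of 0.16, led by the arginine carrier gene Slc7a1 at 1.52 ± 0.523 (SE) and the kinase gene Prkg1 at 1.43 ± 0.540 (SE).

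The marker lists of other cells in the Ift88 experiment also had mostly positive medians. The interstitial and fibroblast list had 14 of 16 genes positive with a median log2 fold change of 0.68, led by Col1a1 at 3.08 ± 0.457 (SE) and Col1a2 at 2.53 ± 0.410 (SE). The smooth muscle and pericyte list had 10 of 12 positive with a median of 0.80, led by Pdgfrb at 1.64 ± 0.381 (SE) and Mcam at 1.22 ± 0.397 (SE). The cardiomyocyte list had 12 of 20 positive with a median of 0.26, the lymphatic list 4 of 5 with 0.29 and the leukocyte list 7 of 12 with 0.75. Their smallest p were those of Sln and Myl7, of Pdpn and Lyve1, and of Itgam and Cd68. Of the red cell markers only Alas2 passed the filter, at -1.73 ± 2.09 (SE). The platelet list had a median of -1.83, led by Gp6 and Gp5. DESeq2 called 3 genes of the interstitial list, Pdgfrb of the smooth muscle list and Itgam of the leukocyte list as higher in the knockout, and Gp6 of the platelet list as lower. Over all genes given an adjusted p, DESeq2 called 2.33%. Itgam was near the floor, at 0 CPM in both wild-type libraries and 0.149 to 7.88 CPM in the knockout libraries. None of these lists had a gene past an adjusted p of 0.05 by edgeR, and 0 to 6 genes a list had an unadjusted p under 0.05.

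The genes nearest to Nfatc1 across the 5 Ift88 libraries were 1700086L19Rik, Tmeff2, Hmgcll1, Arfgef2 and Tll1, out of 12788 genes with a mean count of at least 50. Nearness was the root-mean-square difference of log2(CPM + 1), centred per gene, and ran from 0.103 to 0.233, with Pearson's r of 0.988 to 0.999 over 5 libraries that share the split between the 2 wild-type libraries. Tll1, a protease gene of the tolloid family, was at 3.41, 14.1 and 4.97 CPM in the knockout libraries, against 0 and 11.9 CPM in the wild-type libraries. Among the members Nos3 and Pecam1 were the nearest to Nfatc1, at ranks 168 and 228, and Vwf the farthest, at rank 4857. The genes nearest to Vwf were Elovl7, Igfbp5, Fbln2, Gpc6 and Narg2, at 0.217 to 0.294 with Pearson's r of 0.987 to 0.994. Igfbp5, which encodes a binding protein of insulin-like growth factors, was at 503, 634 and 435 CPM in the knockout libraries, against 30.9 and 171 CPM in the wild-type libraries. Cdh5 was the member nearest to Vwf, at rank 184.

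In the Dzip1 experiment the 10 members differed little between S14R/+ and wild type, and none passed the test. The log2 fold changes ran from -0.08 for Klf4 to 0.05 for Tek, with a median of -0.0083, against -0.00033 over the 16160 genes tested. Of the 10 members 0 passed an adjusted p of 0.05 by edgeR, where 0% of all tested genes passed, and 0 passed by DESeq2 or limma-voom. At an unadjusted p under 0.05 edgeR gave 0 of the 10, against 5.93% of all tested genes. The groups overlapped for all 10, while 10.4% of all tested genes had groups that did not overlap in either direction.

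Nfatc1 was at 96.6, 101 and 97.0 CPM in the S14R/+ libraries, against 102, 92.4 and 104 CPM in the wild-type libraries. The wild type held both the highest and the lowest library. The fold change was 0.994, with a 95% interval of 0.931 to 1.06 and an adjusted p of 0.980 by edgeR.

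Cdh5 was at 287, 287 and 301 CPM in the S14R/+ libraries, against 280, 304 and 304 CPM in the wild-type libraries. Pecam1 was at 213, 207 and 212 CPM in the S14R/+ libraries, against 199, 217 and 212 CPM in the wild-type libraries. Both junction genes had their lowest value in wild-type replicate 1, and their fold changes had 95% intervals of 0.930 to 1.06 for Cdh5 and 0.952 to 1.08 for Pecam1. Kdr was at 192, 192 and 199 CPM in the S14R/+ libraries, against 211, 188 and 204 CPM in the wild-type libraries. Tek was at 204, 202 and 203 CPM in the S14R/+ libraries, against 191, 206 and 197 CPM in the wild-type libraries. For both receptor genes the S14R/+ values lay inside the wild-type range, with 95% intervals of the fold change of 0.915 to 1.04 for Kdr and 0.974 to 1.10 for Tek.

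Emcn had the narrowest range of the 10, at 70.2, 68.2 and 72.5 CPM in the S14R/+ libraries and 70.0, 71.3 and 68.9 CPM in the wild-type libraries. Vwf was the member with the widest interval, at 72.8, 94.4 and 82.9 CPM in the S14R/+ libraries, against 71.2, 93.7 and 93.8 CPM in the wild-type libraries. Replicate 1 was the lowest library of each group, and the 95% interval of the fold change was 0.819 to 1.16. Whether the fold change of Vwf differed between the 2 experiments was not tested.

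Klf2 was at 35.4, 33.8 and 29.3 CPM in the S14R/+ libraries, against 34.5, 31.2 and 32.3 CPM in the wild-type libraries. Klf4 was at 23.8, 23.0 and 19.4 CPM in the S14R/+ libraries, against 26.1, 21.8 and 22.9 CPM in the wild-type libraries. Both factors were lowest in S14R/+ replicate 3, and the 95% intervals of their fold changes were 0.907 to 1.13 for Klf2 and 0.825 to 1.08 for Klf4. Nos3 was at 120, 122 and 123 CPM in the S14R/+ libraries, against 128, 118 and 126 CPM in the wild-type libraries, with a 95% interval of 0.937 to 1.05. The intervals of all 10 members together ran from 0.819 to 1.16. By the labelled genotypes these libraries bound any difference of a member more closely than those of the Ift88 experiment. There the interval of Nfatc1 alone ran from 0.263 to 6.54. Without Dzip1 wild-type replicate 2, edgeR gave 2545 of 16431 genes an unadjusted p under 0.05, against 959 of 16160 with all libraries. Tek, the only member among these genes, then had a log2 fold change of 0.088 ± 0.0367 (SE). Its unadjusted p was 0.0394 and its adjusted p 0.293 by edgeR. The deposited Dzip1 statistics correlated negatively with a refit by these labels (Spearman correlation -0.590), and the direction of their contrast was not tested. The spread between libraries may be technical.

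**Figure D5:**
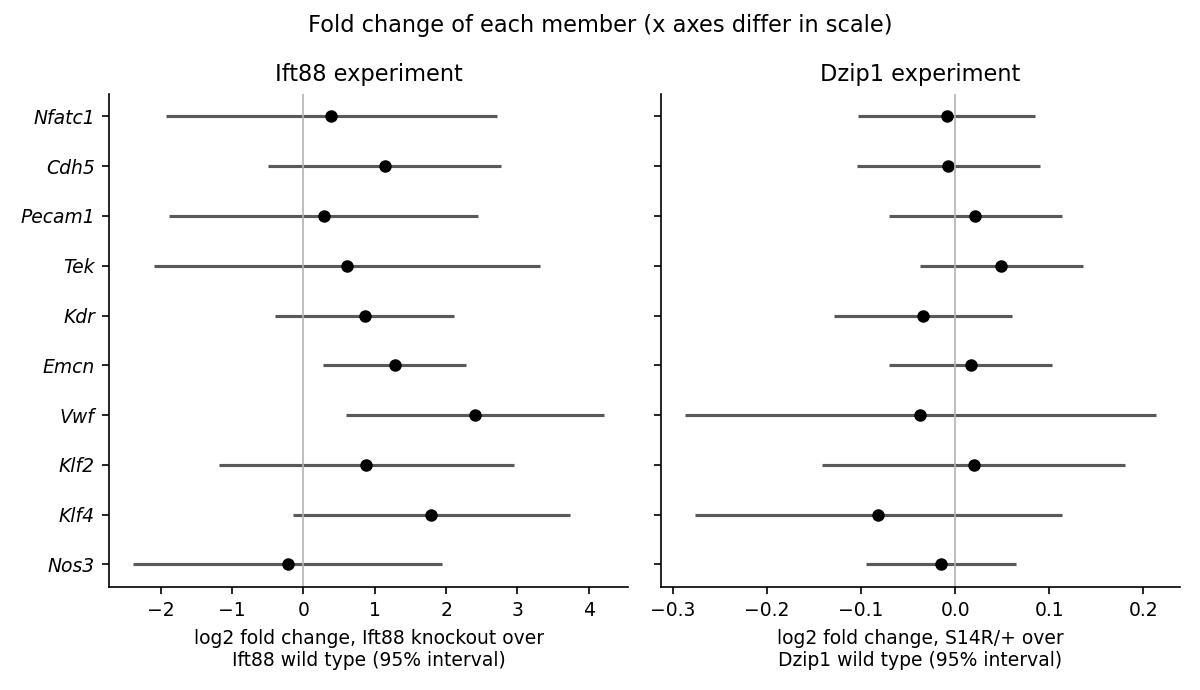
Log2 fold change of each member, mutant over wild type, with its 95% interval from edgeR (horizontal axis) in the Ift88 experiment (left) and the Dzip1 experiment (right). The 2 panels differ in scale: the Ift88 estimates run from -0.22 to 2.41 and the Dzip1 estimates from -0.08 to 0.05.

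The ratios to Pecam1 overlapped between S14R/+ and wild type for all 9 other members, while 7.27% of all tested genes had a ratio that did not overlap. Nos3 had 0.564, 0.589 and 0.582 counts per Pecam1 count in the S14R/+ libraries, against 0.645, 0.543 and 0.596 in the wild-type libraries. The largest difference was that of Klf4, at -0.11 on the log2 scale, with an exact two-sided permutation p of 0.6, where 3 against 3 libraries allow no p below 0.1. Cdh5 had 1.35 to 1.42 counts per Pecam1 count in S14R/+ and 1.40 to 1.44 in Dzip1 wild type. In the Ift88 experiment the same ratio was 0.142 to 0.186 in the knockout and 0.0767 and 0.185 in the wild type. Each table was made separately, and experiment, mouse line and library set cannot be told apart in this contrast.

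Per kilobase of exon sequence, the order of the members was the same in S14R/+ and in Dzip1 wild type. Cdh5 stood first, at 69.5 ± 1.90 CPM per kb in S14R/+ and 70.4 ± 3.24 in wild type (SD, n = 3 each). Tek, Pecam1, Nos3, Kdr and Klf2 followed in that order, none overlapping with its neighbour. Nfatc1, at 13.1 ± 0.297 CPM per kb in S14R/+ and 13.3 ± 0.841 in wild type, overlapped with Emcn, and Klf4 and Vwf came last. Vwf was at 5.19 ± 0.674 CPM per kb in S14R/+ and 5.37 ± 0.809 in wild type (SD, n = 3 each). In the Ift88 knockout Tek stood first at 115 ± 35.2 CPM per kb (SD, n = 3) and did not overlap with Nos3 at 64.0 ± 14.5, whereas Nos3, Pecam1, Klf2, Nfatc1 and Emcn overlapped in a chain, each with the next. Cdh5, first in the Dzip1 experiment, stood seventh there, at 14.1 ± 2.03 CPM per kb. In the Ift88 wild type every member overlapped with its neighbour in the order.

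The pathway lists of the Dzip1 experiment gave 0 calls by edgeR and 0 by DESeq2, with between 1 and 5 genes a list at an unadjusted p under 0.05 by edgeR. Over all tested genes of this experiment 49.9% had a positive fold change. In the NFAT and calcineurin list 10 of 21 genes were positive and the median log2 fold change was -0.0034. Nfatc4, another calcium-regulated NFAT factor, averaged 43.8 ± 1.63 CPM in S14R/+ and 50.7 ± 3.22 CPM in wild type (SD, n = 3 each), a log2 fold change of -0.20 ± 0.0498 (SE). Rcan2, a calcineurin inhibitor, was at 0.16 ± 0.0527 (SE). The endothelial identity list had 13 of 35 genes positive and a median of -0.04, led by Lmo2 at -0.20 ± 0.0662 (SE) and Plvap at 0.09 ± 0.0359 (SE). The valve endothelial and endocardial list had 8 of 21 positive and a median of -0.03. Hey1, a Notch target, averaged 15.7 ± 0.158 CPM in S14R/+ and 18.7 ± 0.580 CPM in wild type (SD, n = 3 each), a log2 fold change of -0.23 ± 0.0554 (SE), and Gpr126 followed at 0.11 ± 0.0363 (SE). Among VEGF and angiopoietin genes 6 of 15 were positive with a median of -0.07, led by Svep1 at -0.23 ± 0.0643 (SE) and Vegfb at 0.16 ± 0.0461 (SE). Among the genes upstream of KLF2 and KLF4 7 of 22 were positive with a median of -0.03. This list was led by Adamts5 at -0.20 ± 0.0594 (SE) and Cyp1b1 at -1.62 ± 0.575 (SE). Cyp1b1 was at 1.01 to 2.69 CPM in S14R/+ and at 1.34 to 9.61 CPM in wild type, so that its groups overlapped. Around Nos3 10 of 17 were positive with a median of 0.0069, led by Spr at 0.18 ± 0.0584 (SE) and Cav1, which encodes the caveolin that binds the enzyme, at -0.18 ± 0.0909 (SE).

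Markers of red cells, leukocytes and interstitial cells had mostly negative fold changes in the Dzip1 experiment, beside members that lay level. The 7 tested red cell markers were all negative, with a median log2 fold change of -0.83, led by Hba-a2 at -0.98 ± 0.255 (SE) and Hba-a1 at -0.98 ± 0.266 (SE). The leukocyte list had 2 of 14 genes positive with a median of -0.29, led by Csf1r at -0.34 ± 0.0756 (SE) and Emr1 at -0.43 ± 0.122 (SE). The interstitial and fibroblast list had 3 of 16 positive with a median of -0.10, led by Col1a2 at -0.38 ± 0.137 (SE) and Col3a1 at -0.24 ± 0.0922 (SE). At an adjusted p of 0.05 edgeR and DESeq2 gave 0 calls in these lists, and at an unadjusted p under 0.05 edgeR gave 6, 5 and 6 genes in the order given. The cardiomyocyte list had 18 of 20 positive with a median of 0.10 (Myl4 at 0.14 ± 0.0547 and Myl3 at 0.15 ± 0.0705, SE), the platelet list 7 of 10 with a median of 0.08 (Pf4 at -0.32 ± 0.370 and Gp1bb at -0.25 ± 0.346, SE). The smooth muscle and pericyte list had 5 of 12 positive with a median of -0.05 (Pdgfrb at -0.19 ± 0.0385 and Myh11 at -2.38 ± 0.718, SE), and the lymphatic list 2 of 5 with a median of -0.05 (Lyve1 at -0.27 ± 0.130 and Reln at -0.14 ± 0.0786, SE). Myh11 was at 1.86 to 2.09 CPM in S14R/+ and at 1.70 to 23.9 CPM in wild type, so that its groups overlapped. The 10 members summed to 1316, 1330 and 1339 CPM in S14R/+, against 1313, 1342 and 1366 CPM in wild type. The part of these marker shifts in the members' values was not tested.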

How the data were processed

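RNA of mouse mitral leaflets was sequenced in 11 libraries, from total RNA and SMART-Seq v4 low-input libraries per the labels' protocols. The submitters' processing notes name GRCm38 as the build and list cutadapt 1.11, FastQC 0.11.5, HTSeq, DESeq and DESeq2. Aligner, annotation and strand setting are not given in those notes or the labels, so reads of overlapping or antisense genes cannot be told apart. A low-input kit that amplifies full-length cDNA can make counts depend on transcript length and RNA quality.

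Each deposited table holds counts per gene and library, whole numbers per the file headers and the values. The authors' results stand beside them: a mean signal (baseMean), a log2 fold change with its standard error, a score (the fold change over that error) and p-values with adjusted p-values, all deposited by the authors. A DESeq2 refit by the labelled groups followed the deposited score with a Spearman correlation of 0.989 across genes in the Ift88 table and of -0.590 in the Dzip1 table. In the Dzip1 table the deposited score thus tended to run opposite to mutant over wild type. A reversed direction alone would change the sign of the correlation and not its size, which was short of that in the Ift88 table. The deposited Dzip1 statistics were therefore not used, and the Dzip1 results given here rest on the labels alone.

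Members and gene lists were chosen with earlier results of these data known, as were the tests. Counts were scaled to CPM by the library total. Each table was fitted whole by the quasi-likelihood F test of edgeR 4.0.16 under R 4.3.3 (TMM scaling, filterByExpr at its defaults, Benjamini-Hochberg over 14244 and 16160 genes, threshold 0.05), mutant over wild type. Standard errors were derived from the F statistic. Alternatives were DESeq2 1.42.0, limma-voom 3.58.1, other scalings, filters and thresholds, a lowess length correction (span 0.3), covariates and each library left out. Exon lengths came from GENCODE M21, which gave a length for 26405 of 28591 symbols. The text names all 10 members, the 2 genes of smallest p of each list and the 5 genes nearest to Nfatc1 and Vwf. The fits were also run on simulated counts with known fold changes. That simulation held no split between the wild-type libraries, no difference in tissue makeup and no trend with transcript length. No library was a copy of another. The closest pair, S14R/+ replicate 2 and Dzip1 wild-type replicate 2, gave 10.8 as the chi-squared over its degrees of freedom. By this measure Dzip1 wild-type replicate 2 lay at 16.4, 10.8 and 12.1 from the S14R/+ libraries. From Dzip1 wild-type replicates 1 and 3 it lay farther, at 28.7 and 29.9. Why it lay nearer to the mutant libraries was not tested.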

Additional observations from a re-analysis of the deposited data

How the results depend on the processing

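No paired analysis was possible because the labels give no replicate number that pairs a mutant with a wild-type library: IR28N stands in the names of 1 wild-type and 2 knockout libraries, and 1 stem is common to all 6 Dzip1 libraries. The count of members past the threshold was 0 in both experiments under every alternative run: DESeq2, limma-voom, RLE and upper-quartile scaling, library totals, both other filters, the length correction, the covariates, the IR28N libraries and each library left out, all at 0.05. At a threshold of 0.1 edgeR gave 0 in both, whereas the DESeq2 adjusted p of Vwf in the Ift88 experiment, 0.0739, lies under it. Of the Ift88 libraries, the IR28N fit lacks wild-type replicate 2, and cardiomyocyte markers set that library apart in the covariate fit. The members' median log2 fold change was 2.68 with the IR28N libraries alone and 2.35 with the cardiomyocyte covariate. With each library left out it was 0.29 to 2.48 in the Ift88 experiment. Nos3 was positive there by limma-voom (0.56), with the IR28N libraries (2.51), with the cardiomyocyte covariate (2.21) and with the IR28N name part as a covariate, added after seeing the data (0.77, members' median 1.24), and Nfatc1 was -0.015 with the length correction. With each library left out, the Ift88 log2 fold changes ran from -0.46 to 2.43 for Nfatc1, -0.63 to 2.87 for Pecam1, -0.37 to 4.26 for Tek and -1.14 to 2.43 for Nos3. In the Dzip1 experiment they ran from -0.051 to 0.012 for Nfatc1, -0.045 to 0.022 for Cdh5, -0.014 to 0.059 for Pecam1, -0.071 to 0.0023 for Kdr, -0.0077 to 0.039 for Emcn, -0.16 to 0.053 for Vwf, -0.037 to 0.095 for Klf2, -0.14 to 0.0021 for Klf4 and -0.041 to 0.0097 for Nos3. Tek stayed positive in the Dzip1 experiment, at 0.024 to 0.088, the highest being without wild-type replicate 2. The cause of the changes of sign in either experiment was not tested.

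DESeq2 called 2 listed pathway genes in the Ift88 experiment, and 1 (Npr3) when run, as an alternative added after seeing the data, on the genes kept by filterByExpr. Leaving out a library gave 0 to 2, the 2 being Rcan2 and Egfl7 without wild-type replicate 1, named here after their values were seen. Over all genes of the Ift88 experiment edgeR called 0, DESeq2 376, DESeq2 on the genes kept by filterByExpr 218, and edgeR without wild-type replicate 1 called 187. In the Dzip1 experiment edgeR called 10 genes once wild-type replicate 2 was left out. Dropping wild-type replicate 1 gave 2 calls, dropping S14R/+ replicate 2 gave 1, and the other fits 0. A spread of 87.7% between libraries, with 2 in the wild type, limits what the Ift88 comparison can show, and a count of 0 there does not show that members were alike.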
